A study of Mus musculus with 6 samples.

Results

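Proteasome genes were examined for E2F1 binding in the mouse embryonic fibroblast line NIH/3T3. They were taken as the protein-coding genes of the RefSeq table for GRCm38 whose symbol begins with Psma to Psmg and a digit, which gave 51 genes of 21896. The rule used symbols and no measured value. It takes in Psmc3ip and Psme3ip1, which encode proteins named for an interaction with a proteasome subunit or activator and are not proteasome parts, so 49 genes encode subunits, activators, an inhibitor or assembly chaperones. ChIP-seq, the sequencing of DNA that is pulled down with a chromatin protein, had been done for E2F1 in 2 libraries of cells carrying a doxycycline-inducible E2F1 construct and 2 libraries of cells carrying a doxycycline-inducible empty vector (EV), both stably integrated. All cells had been starved of serum for 48 h and then given doxycycline for 12 h, to ask how E2F1 brings resting cells back into the cycle. The control cells thus shared the starvation and the drug, with a vector that held no E2F1. The E2F1 studied was that expressed from the construct together with any of the cells' own, and nothing in the labels says whether the lines are clones or pools, or whether replicates came from separate cultures. Only peak lists were used, so fibroblast markers could not be checked, and input DNA of the EV cells was not analysed here.

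The proteasome degrades proteins tagged with ubiquitin, among them the cyclins and inhibitors whose removal drives the cell cycle. Its core particle is a barrel of alpha rings, which form the gate, around beta rings, which hold the proteolytic sites. The regulatory particle caps the barrel: a ring of ATPases unfolds the substrate, further base subunits and the lid recognise it and strip off the ubiquitin. Proteasome genes are known to be induced together by the transcription factor Nfe2l1 through antioxidant response elements, while E2F1 is known for driving genes of DNA replication.

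The promoters below are those of the 5 members with the highest geometric mean of the folds in both E2F1 lists among those with a sequence entry, with 1 member that had no E2F1 peak for contrast. For Psma6 the start under its peak is shown. They run 5′ to 3′ from 250 bases before to 50 bases from the annotated gene start (RefSeq, GRCm38.p6), and capitals mark the last 7 letters of the E2F words TTTCCCGC, TTTGGCGC, TTTGCCGC and TTTCGCGC on either strand. Positions within them count from 0 at the gene start.
Psmc4, chr7:28050043-28050342, minus strand: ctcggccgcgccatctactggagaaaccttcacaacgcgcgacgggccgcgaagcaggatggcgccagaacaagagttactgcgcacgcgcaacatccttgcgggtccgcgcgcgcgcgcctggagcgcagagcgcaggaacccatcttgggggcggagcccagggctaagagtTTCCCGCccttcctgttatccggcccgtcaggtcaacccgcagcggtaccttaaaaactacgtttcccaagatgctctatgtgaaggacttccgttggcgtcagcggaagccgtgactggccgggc
Psmc2 first start, chr5:21785025-21785324, plus strand: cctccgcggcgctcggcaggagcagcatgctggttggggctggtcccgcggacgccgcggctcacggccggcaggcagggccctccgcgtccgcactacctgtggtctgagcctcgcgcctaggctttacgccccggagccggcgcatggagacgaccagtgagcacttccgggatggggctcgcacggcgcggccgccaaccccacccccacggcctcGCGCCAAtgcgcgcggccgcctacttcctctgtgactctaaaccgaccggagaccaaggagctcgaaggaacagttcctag
Psmc2 second start, chr5:21786497-21786796, plus strand: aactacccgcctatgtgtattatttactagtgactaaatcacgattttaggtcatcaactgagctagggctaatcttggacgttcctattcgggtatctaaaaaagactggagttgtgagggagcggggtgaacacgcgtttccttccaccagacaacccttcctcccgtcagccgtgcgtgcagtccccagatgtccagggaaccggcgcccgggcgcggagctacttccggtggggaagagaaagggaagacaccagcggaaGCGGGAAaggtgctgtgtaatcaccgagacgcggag
Psma6 second start, chr12:55398575-55398874, plus strand: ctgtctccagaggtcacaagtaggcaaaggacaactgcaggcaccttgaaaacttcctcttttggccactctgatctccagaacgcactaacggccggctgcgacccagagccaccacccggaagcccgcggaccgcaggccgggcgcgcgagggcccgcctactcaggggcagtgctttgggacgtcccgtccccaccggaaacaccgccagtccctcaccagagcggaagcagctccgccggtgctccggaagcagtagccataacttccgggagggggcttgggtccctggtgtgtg
Psmd12, chr11:107479278-107479577, plus strand: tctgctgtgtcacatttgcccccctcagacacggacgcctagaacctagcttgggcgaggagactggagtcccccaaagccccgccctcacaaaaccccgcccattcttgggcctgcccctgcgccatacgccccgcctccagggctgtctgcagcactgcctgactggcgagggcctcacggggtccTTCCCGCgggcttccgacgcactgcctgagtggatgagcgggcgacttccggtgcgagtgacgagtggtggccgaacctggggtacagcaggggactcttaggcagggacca
Psmd1, chr1:86064369-86064668, plus strand: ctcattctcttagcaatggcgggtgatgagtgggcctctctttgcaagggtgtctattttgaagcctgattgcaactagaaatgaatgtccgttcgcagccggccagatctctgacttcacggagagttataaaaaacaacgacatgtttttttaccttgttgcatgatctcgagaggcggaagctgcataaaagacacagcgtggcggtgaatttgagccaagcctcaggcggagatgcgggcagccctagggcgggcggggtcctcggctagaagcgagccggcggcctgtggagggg
Psmb5, no E2F1 peak, chr14:54617946-54618245, minus strand: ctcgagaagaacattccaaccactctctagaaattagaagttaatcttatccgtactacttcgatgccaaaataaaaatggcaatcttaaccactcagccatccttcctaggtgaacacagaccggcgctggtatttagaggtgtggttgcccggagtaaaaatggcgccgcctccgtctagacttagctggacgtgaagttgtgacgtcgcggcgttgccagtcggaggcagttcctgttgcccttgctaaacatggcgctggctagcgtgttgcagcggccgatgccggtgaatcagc

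In Psmc4, an ATPase of the regulatory particle, the word runs from base -76 to -70, and with the T before it forms the longer word TTTCCCGC. The peak summits lay at -164 in E2F1 replicate 1 and at -142 in replicate 2. In Psmc2, another ATPase, a word lies at -31 to -25 of the first start and, as part of TTTCCCGC, at 14 to 20 of the second. In Psmd12, a lid subunit, it lies at -62 to -56. Psma6, Psmd1 and Psmb5 hold none of these words in this window, although Psma6 and Psmd1 had a peak in both lists.

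A gene was counted as having a peak when any base of a listed peak lay inside the gene or within 1000 bp of it, and it was represented by its peak of highest fold enrichment, the authors' ratio of read pileup to local background at the summit. By this count 27 of the 51 genes (52.9%) had a peak in both E2F1 lists, against 34.4% of all protein-coding genes. A further 5 were in the list of replicate 1 only and 5 in that of replicate 2 only, and 14 (27.5%) were in neither. Each E2F1 list thus held 32 of the genes (62.7%, beside 36.9% of all protein-coding genes in replicate 1 and 38.2% in replicate 2), while the EV lists held 0 and 1 (0.434% of all protein-coding genes were in either). The E2F1 libraries had a mean of 32 ± 0 genes (SD, n = 2) and the EV libraries one of 0.5 ± 0.707 (SD, n = 2), and every E2F1 library lay above every EV library. The exact two-sided permutation test of this difference gave p = 0.33, the smallest p that 2 against 2 libraries allow. The lists stop at a -log10 p of about 10, so a gene without a peak may still carry weaker signal. Whether the share of the proteasome genes differed from that of other genes was not tested, here or in what follows.

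Among genes with a CpG-rich promoter, the share of proteasome genes with a peak was near that of all genes. A promoter was called CpG-rich when its 300 bases had an observed over expected CpG ratio of at least 0.6 and a GC content of at least 50%. An entry was found for 43 of the 51 genes (none for Psma8, Psmb1, Psmb2, Psmb7, Psmc3, Psmd3, Psmd7 and Psmg2), and 30 of them were CpG-rich (69.8%, against 48.3% of protein-coding genes with an entry). Of these 30, 18 had a peak in both lists (60%), beside 61.8% of all CpG-rich genes. Of the 13 that were not CpG-rich, 3 did (23.1%): Psma3, Psmb9 and Psmd4, beside 10.3% of all such genes. This share rests on few genes, and Psmb9 missed the CpG cut narrowly, with a ratio of 0.5996 and a GC content of 62%.

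**Figure D1:**
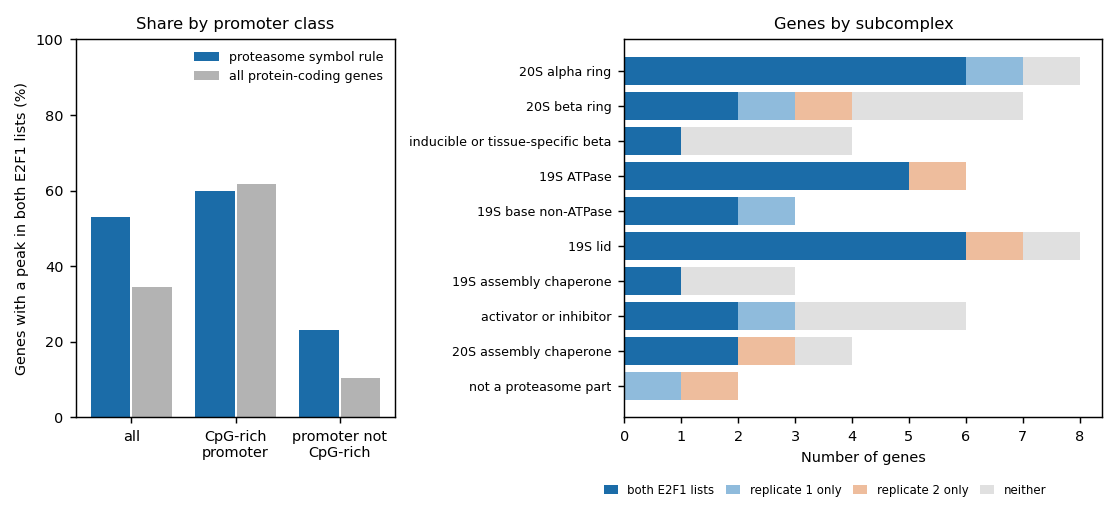
Left, share of genes with a peak in both E2F1 lists (%), for genes matching the proteasome symbol rule (blue) and all protein-coding genes (grey), in full and by promoter class. Right, number of genes of each subcomplex with a peak in both lists, in a single list or in neither. The proteasome genes exceed all genes taken in full, at 52.9% against 34.4%, and stand beside the CpG-rich genes at 60% against 61.8%.

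The peaks at proteasome genes were of modest height, as were those of the other housekeeping families given below. Among the 27 genes in both lists the geometric mean of the folds ran from 5.43 to 25.1 with a median of 8.88, and over all protein-coding genes with peaks in both lists the median was 11.5. In replicate 1 the median fold was 9.54, beside 10.2 over all such genes, and in replicate 2 it was 8.75, beside 13.1. In terms of place in the list, a median of 52.7% of all peaks in replicate 1 had a lower fold than the member's peak (57.1% over all such genes), but only 35.2% in replicate 2 (57.6%). The libraries therefore gave different pictures of the same genes. Split at the median fold of each list, 14 of the 27 lay in the upper part in replicate 1 and 5 in replicate 2. Of all 7535 such genes, 4370 lay there in replicate 1 and 4406 in replicate 2. In both lists at once 4 members did (14.8%, beside 46.4% over all such genes): Psmc2, Psmc3, Psmc4 and Psmg2. No member lay among the highest 10% of both lists, where 6.77% of all such genes lay. The solved pileups at the summits ran from 19 to 69 reads in replicate 1 and from 20 to 121 in replicate 2, so single folds carry sizeable counting error.

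With only peaks at or above the median score of their list, 5 of the 51 genes kept a peak in both lists, namely Psmc2, Psmc3, Psmc4, Psmd12 and Psmg2. That is 9.8%, below the 17.1% of all protein-coding genes, so the direction of the difference from all genes depended on the height required. Among CpG-rich promoters it was 3 of 30 (10%), beside 32.1% of all CpG-rich genes. The number of members passing was 14 of 51 in replicate 1 and 6 in replicate 2. Of all 21896 protein-coding genes, 4342 passed in replicate 1 and 4458 in replicate 2. At this height the share of members was thus above that of all genes in replicate 1 and below it in replicate 2.

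**Figure D2:**
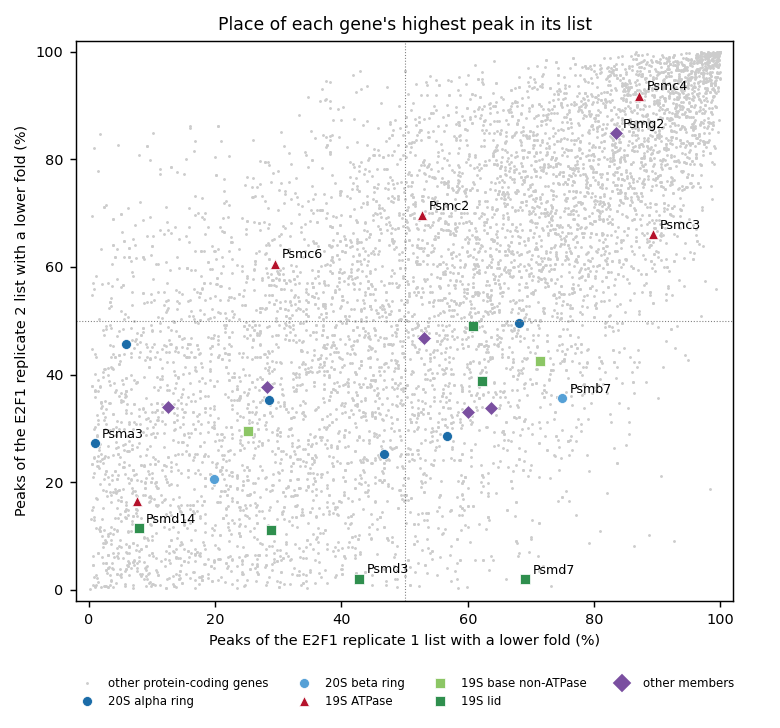
Each point is a gene with a peak in both E2F1 lists, placed by the share of peaks (%) with a lower fold in replicate 1 (horizontal) and replicate 2 (vertical); dotted lines mark 50% and grey points are other protein-coding genes. Only Psmc2, Psmc3, Psmc4 and Psmg2 lie above 50% on both axes, and Psmd7 lies high in replicate 1 and near the bottom in replicate 2.

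The ATPase ring, Psmc1 to Psmc6, held the highest member peak as well as one of the lowest. All 6 genes had a peak in replicate 2, and 5 had one in both lists, with a median geometric mean fold of 12.7, beside 14.3 for the 2 core particle chaperones in both lists. Of all protein-coding genes, 38.2% were in replicate 2 and 34.4% in both lists, where the median geometric mean fold was 11.5. Of those with a CpG-rich promoter, 61.8% were in both lists. Psmc4 had the highest peak of all members, at chr7:28049536-28050472 in replicate 1 with a fold of 19.1 (rank 1006 of 7836 peaks) and at chr7:28049588-28050493 in replicate 2 with a fold of 33.1 (rank 660 of 8027). Psmc3 followed within the ring, with a fold of 20.5 (rank 839) in replicate 1 and 15.6 (rank 2725) in replicate 2, and summits 163 and 84 bp from the nearer gene end. Psmc4 was thus the higher in replicate 2 and Psmc3 in replicate 1, and their order is not settled by these libraries.

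Psmc2 had 2 peaks in each list, at both of its annotated starts. Around the first start the folds were 7.29 in replicate 1 and 17.0 in replicate 2, and around the second they were 9.54 and 9.33. The summits lay at -216 and -82 bp from the first start, and at 139 and 29 bp from the second. The higher of the peaks was thus at the second start in replicate 1 and at the first in replicate 2. Psmc6 had folds of 6.83 and 14.0. Psmc5 was the lowest ATPase gene in both lists, at chr11:106255830-106256363, with folds of 5.13 (rank 7236) and 6.33 (rank 6703). Psmc1 was in the list of replicate 2 only, at chr12:100110113-100110527, with a fold of 5.34 (rank 7480).

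The other base subunits, Psmd1, Psmd2 and Psmd4, were in the replicate 1 list without exception, beside 36.9% of all protein-coding genes. Psmd1, a large scaffold subunit, had a peak at chr1:86064378-86065043 with a fold of 13.1 (rank 2231) in replicate 1 and 9.97 (rank 4610) in replicate 2. Psmd4, a ubiquitin receptor, had lower peaks at chr3:95042303-95042615, with folds of 6.49 (rank 5851) and 7.90 (rank 5660). Psmd2, the partner scaffold of Psmd1, had a fold of 13.9 at chr16:20651418-20652344 (rank 1985) in replicate 1. In replicate 2 no peak was listed at Psmd2, and the nearest lay 8769 bp from the gene.

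Of the 8 lid genes, 6 had a peak in both lists (75%), beside 34.4% of all protein-coding genes. Their median geometric mean fold was 6.89, beside 11.5 over all such genes. Psmd12 was the highest at chr11:107479170-107480298, with folds of 10.9 (rank 3062) and 11.2 (rank 4087). Psmd14, the deubiquitinase of the lid, was the lowest at chr2:61711552-61712054, with folds of 5.14 (rank 7200) and 5.86 (rank 7096). Both gave nearly equal folds in the libraries, whereas Psmd7, the partner of Psmd14, had 12.5 (rank 2416) in replicate 1 and 4.52 (rank 7864) in replicate 2. The solved pileup at Psmd7 was 50 and 35 reads, over local backgrounds of 3.09 and 6.97 reads. At Psmd3, with folds of 8.35 and 4.54, the pileups were close at 46 and 44 reads, and the backgrounds were 4.63 and 8.90 reads. Psmd8 was in replicate 2 only, at chr7:29180246-29180618 with a fold of 6.23 (rank 6808), and Psmd6 was in neither list.

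In the core particle, 6 of 8 alpha genes (75%) and 2 of 7 constitutive beta genes (28.6%) had a peak in both lists, beside 34.4% of all protein-coding genes. The difference between the rings was not tested and rests on few genes. Psma6 had the highest alpha peak at chr12:55398331-55399099, with folds of 12.3 (rank 2498) and 11.2 (rank 4036), at the second of its annotated starts. Psma3 had the lowest, at chr12:70974707-70975354, with folds of 3.90 (rank 7765) and 7.57 (rank 5834). Psma4 was in replicate 1 only, at chr9:54950868-54951305 with a fold of 8.01 (rank 4680). Psma8, which encodes a testis form of an alpha subunit, was in neither list.

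Psmb5, Psmb6 and Psmb7 encode the catalytic beta subunits, and of these Psmb7 alone was listed. Its peak at chr2:38643366-38644542 had folds of 14.1 (rank 1956) and 8.79 (rank 5161). Psmb1 had lower peaks at chr17:15497874-15498270, with folds of 6.04 (rank 6281) and 6.79 (rank 6367). Psmb4 was in replicate 1 only, at chr3:94886540-94886907 with a fold of 7.34 (rank 5127). Psmb2 was in replicate 2 only, at chr4:126677506-126678033, where a fold of 11.4 put it at rank 3973. Psmb3, Psmb5 and Psmb6 were in neither list. All 3 promoters were CpG-rich, and of all CpG-rich genes 28.7% were in neither list. The nearest E2F1 peak to Psmb3 lay 2220 bp from the gene in replicate 1 and 2568 bp in replicate 2.

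Psmb8, Psmb9 and Psmb10 replace the catalytic subunits in the interferon-induced immunoproteasome, and Psmb11 does so in the thymus. Only Psmb9 was listed, at chr17:34187052-34188193, with folds of 5.51 (rank 6854) and 8.50 (rank 5299). In at least 1 list that peak also covered the start of Tap1, a peptide transporter gene on the opposite strand, and it cannot be assigned to either gene. Of the activator genes, Psme3 and Psme4, which encode nuclear activators, had a peak in both lists, at chr11:101315208-101316720 with folds of 9.59 (rank 3676) and 10.7 (rank 4273), and at chr11:30771734-30772508 with folds of 10.7 (rank 3126) and 8.40 (rank 5345). Psme1 and Psme2, which encode the interferon-induced activator, and Psme2b were in neither list. Psmf1, which encodes a proteasome inhibitor, was in replicate 1 only, at chr2:151740899-151741619 with a fold of 6.94 (rank 5432).

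Among the chaperones that assemble the core particle, Psmg2 had the second highest geometric mean fold of all members, 20.7. Its peak at chr18:67640490-67642240 had folds of 17.1 (rank 1295) and 25.0 (rank 1216). In at least 1 list it also lay within 1000 bp of a boundary of the centrosomal gene Cep76. Its partner Psmg1 was in replicate 2 only, at chr16:95990641-95991272 with a fold of 6.74 (rank 6388). Psmg4 had folds of 6.71 (rank 5624) and 9.14 (rank 4999) at chr13:34162929-34163215, and its partner Psmg3 was in neither list. Of the chaperones of the regulatory particle, Psmd5 had folds of 11.4 (rank 2839) and 8.47 (rank 5303) at chr2:34870515-34871561. Psmd9 and Psmd10 were in neither E2F1 list. Psmd9 held the only EV peak of all members, in EV replicate 2 at chr5:123246756-123247263 with a fold of 5.31 (rank 145 of 358), 18894 bp past the gene start and inside the gene. Over all protein-coding genes 0.0365% were in the EV replicate 1 list and 0.406% in that of EV replicate 2.

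The interacting proteins were each in a single list. Psmc3ip, a meiotic recombination factor, had a fold of 6.03 (rank 6931) in replicate 2 at chr11:101095015-101095799. Psme3ip1 had a fold of 5.87 (rank 6499) in replicate 1 at chr8:94601015-94601651, with a lower peak of fold 5.44 beside it.

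**Figure D3:**
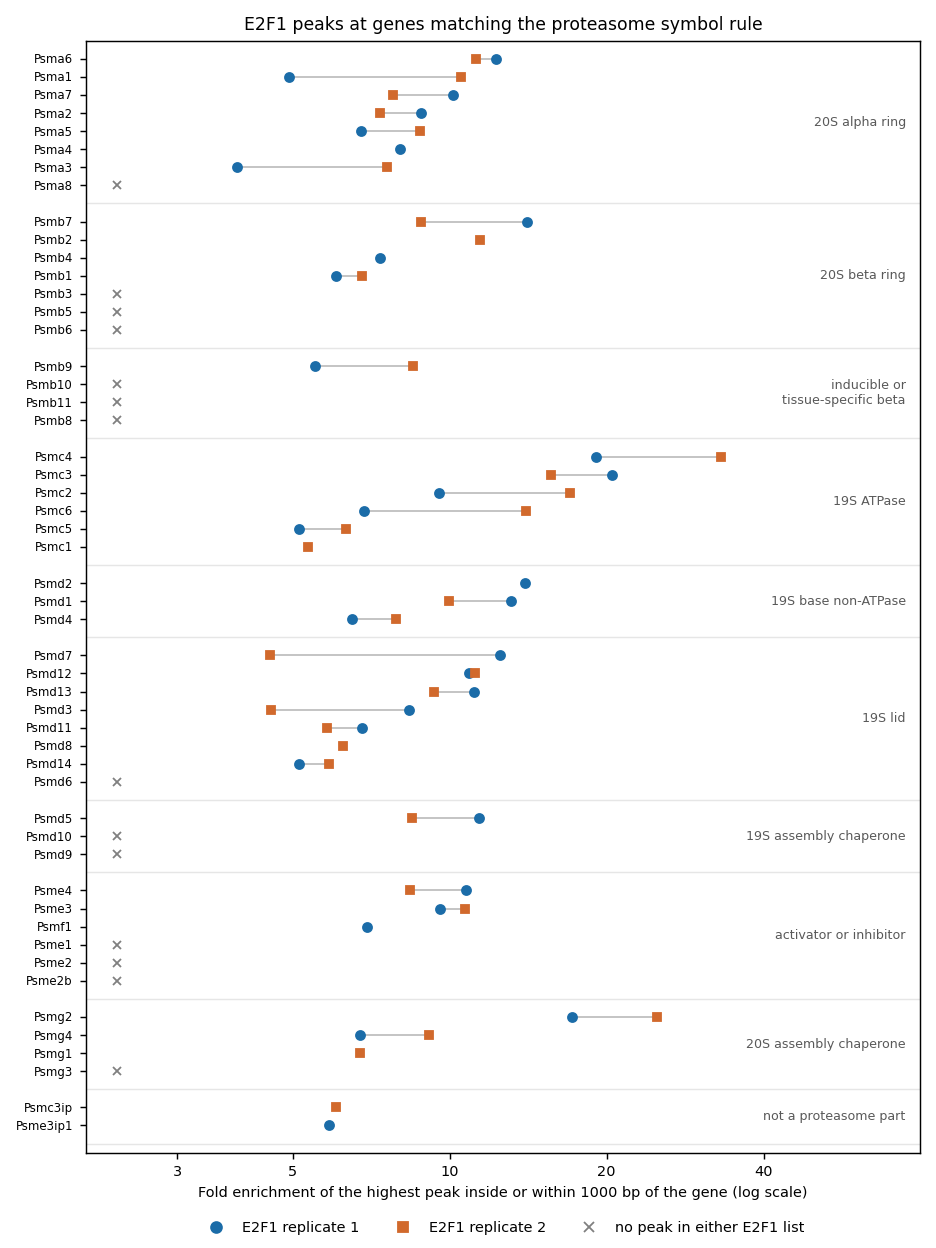
Fold enrichment (log scale) of the highest peak inside or within 1000 bp of each gene, in E2F1 replicate 1 (blue circles) and replicate 2 (orange squares), by subcomplex (20S is the core particle, 19S the regulatory particle); grey crosses mark genes in neither list. Psmc4 and Psmg2 reach the highest folds, 33.1 and 25.0 in replicate 2, and the widest gap between the libraries is that of Psmd7, 12.5 against 4.52.

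Where both lists had a peak, they put it at the same place. The representing peaks overlapped for 26 of 27 genes, all but Psmc2, whose paired peaks at each start overlapped as well. When peaks of the lists had to overlap by 1 bp, all 27 members were kept. The share of all protein-coding genes was then 34.3%, beside 34.4% without this condition, so such overlap was general in these lists. At the members, the summits of the libraries lay a median of 79 bp apart, and within 250 bp for 23 genes. Spearman's rho of the folds was 0.48 over the 27 members and 0.71 over 7535 protein-coding genes. This is a description over genes that share the same libraries.

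The summits sat close to gene starts. Of members with an annotated start, 20 of 26 in replicate 1 (76.9%) and 21 of 25 in replicate 2 (84%) had the summit within 250 bp of a start, beside 65.3% and 72.6% of all protein-coding genes with a peak. No summit was farther than 605 bp away, and 90.1% and 90.4% of all such genes had theirs within 1000 bp. In replicate 1 a group of summits lay before the start and a larger one after it, 8 against 18 genes, and in replicate 2 the numbers were 11 and 14. All protein-coding genes with a peak were split in the same direction, 1968 against 4636 in replicate 1 and 2553 against 4237 in replicate 2. The median width of member peaks was 776 and 753 bp in the 2 lists for genes in both, beside 1012 and 889 bp over all such genes.

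**Figure D4:**
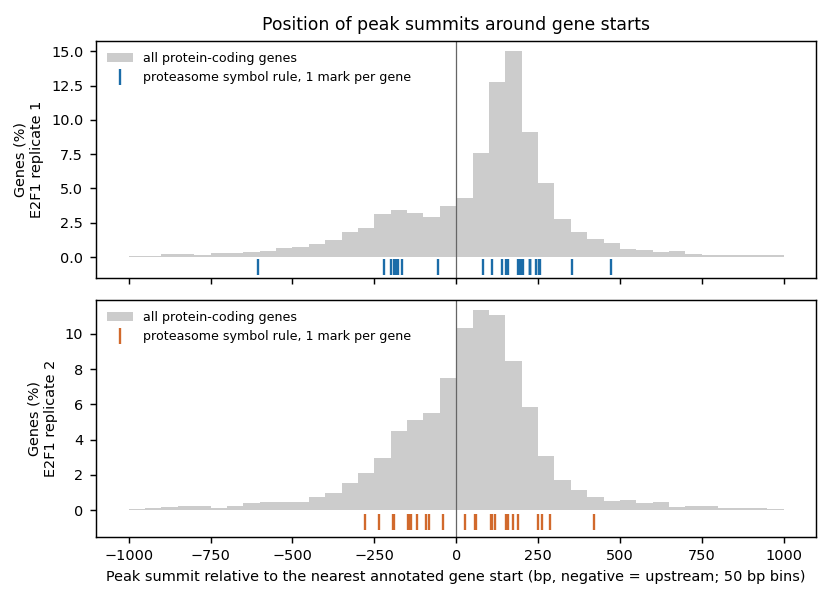
Distance of the peak summit from the nearest annotated gene start (bp, negative upstream) for all protein-coding genes with a peak (grey, % of genes in 50 bp bins) and for proteasome genes (coloured marks) in E2F1 replicates 1 and 2. The marks lie between -605 and 473 bp in replicate 1 and between -278 and 422 bp in replicate 2.

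For 7 of the 27 genes (25.9%) the peak also lay within 1000 bp of a boundary of another protein-coding gene, beside 29.8% of all genes with peaks in both lists. Psma2 shared its peak with Mrpl32, Psma7 with Ss18l1, Psmc5 with Ftsj3 and Psmd13 with Sirt3, and in each of these the start of the partner on the opposite strand lay under the peak, as it did for Psmb9 and Tap1. The others were Psmc2 with Dnajc2 and Psmg2 with Cep76. A shared peak cannot be assigned to either gene. The median geometric mean fold was 8.88 at shared and 8.66 at unshared member peaks.

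A minority of these promoters held an E2F word. The 8-letter words TTTCCCGC, TTTGGCGC, TTTGCCGC and TTTCGCGC, searched on both strands, were found at 3 of 43 members with an entry (6.98%), namely Psmb9, Psmc2 and Psmc4, beside 3.29% of all protein-coding genes and 5.49% of CpG-rich ones. All 3 had a peak in both lists, as did 381 of the 575 protein-coding genes with such a word. The 7-letter forms, which lie inside the 8-letter words, were found at 7 (16.3%), beside 13.7% and 23.1%. Of these, Psma1, Psma5, Psmb9, Psmc2, Psmc4 and Psmd12 had peaks in both lists and Psme1 had none. Among all protein-coding genes with a 7-letter form, 1486 of 2404 had peaks in both lists. The GC box GGGCGG was found at 24 members (55.8%), beside 49.2% of all genes and 78.9% of CpG-rich ones, and CCAAT at 16 (37.2%), beside 42.3% and 41.8%. The core of the antioxidant response element, TGACNNNGC or TGATNNNGC, was found at 10 (23.3%), beside 22.6% and 24.3%, among them Psmb5 and Psmb6. In the Psmb5 promoter printed above it is tgacgtcgc, from base -47 to -39. A match is a stretch of letters and not a site shown to be bound.

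Genes that act with the proteasome were listed by hand with earlier results of these data known, as 30 symbols of which 29 were matched and analysed. A peak in both lists was found at 24 of the 29 (82.8%), beside 52.9% of the proteasome genes. The share was 34.4% of all protein-coding genes and 61.8% of those with a CpG-rich promoter. The 24 had a median geometric mean fold of 11.7, beside 11.5 over all protein-coding genes with peaks in both lists. A peak at or above the median score in both was kept by 12 of the 29 (41.4%), beside 17.1% of all protein-coding genes and 32.1% of CpG-rich ones. The polyubiquitin gene Ubb had folds of 21.4 and 15.4. Txnl1, a thioredoxin-like protein of the regulatory particle, had 11.9 and 27.3, and the ubiquitin ligase gene Ube3c had 10.3 and 26.6. Ddi2, the protease that activates Nfe2l1, had 13.2 and 20.6, while Nfe2l1 had 7.50 and 6.02. The ubiquitin receptor subunit gene Adrm1, which the symbol rule misses, had 9.98 and 23.5, and the lid subunit gene Sem1 had 12.1 and 6.98. Nfe2l1 and Sem1 are not among the genes with the highest folds and were chosen after their values were seen. Akirin2 and Vcp were in replicate 1 only and Rps27a in replicate 2 only. Pomp, a chaperone of the core particle, and Uba1, the ubiquitin-activating enzyme gene, were in neither list.

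Other housekeeping families gave similar or higher shares by the same count. A peak in both lists was found at 51 of 78 mitochondrial ribosomal protein genes (65.4%), 17 of 28 RNA polymerase subunit genes (60.7%) and 38 of 56 genes with a translation initiation factor symbol, Eif (67.9%). The share was 52.9% of proteasome genes and 34.4% of all protein-coding genes. The families were taken by symbol alone, so the Eif genes are not initiation factors only. At or above the median score the shares were 23.1%, 17.9% and 26.8%, beside 9.8% of proteasome genes and 17.1% of all protein-coding genes. Among genes in both lists, the median geometric mean fold of these families was 8.94, 9.26 and 10.4. It was 8.88 for proteasome genes and 11.5 over all protein-coding genes, so a median below that of all genes was not particular to the proteasome. These differences were not tested.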

How the data were processed

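E2F1 ChIP-seq peak lists of 4 NIH/3T3 libraries, 1 per sample, were used. The deposited columns are a score, which equals 10 times the -log10 q rounded down for at least 99.8% of the peaks of each list, a fold enrichment (a ratio), a -log10 p and a -log10 q for each peak. Bowtie2, MACS2 and the build mm10 are named in the submitters' processing notes. The protocols in the labels describe RNA libraries, so the antibody, the control and the cutoff are not given in the sources used here, and the dose of doxycycline is left out because the labels and the names of the lists differ on it. The lists held 7836 and 8027 peaks (E2F1) and 70 and 358 (EV). No read totals were used. Pileups were solved from fold and -log10 p under a Poisson model with a pseudocount of 1, with a whole number of reads, within 5% of the step in -log10 p that 1 read makes, found at all member peaks. The solution was tested on simulated data. The simulated pileups did not go as low as the lowest at member peaks, 19 reads in replicate 1 and 20 in replicate 2. The simulated backgrounds did not reach the highest at member peaks, 9.26 and 8.90 reads. Genes came from RefSeq GRCm38.p6 and promoters, strands and starts from the matching sequence table. Subcomplexes were assigned by hand. Positions and folds are given for the highest and lowest member of each subcomplex among genes in both lists, for members in a single E2F1 list, and for members in an EV list, while other members are named where a result turns on them. The members and lists were chosen with earlier results of these data known. The values of 1 gene of the pathway list are not reported here. Alternatives covered the window, the overlap, the score, the rank measure, the members, the background genes and each replicate. Python 3.11.15 with scipy 1.17.1 was used.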

Additional observations from a re-analysis of the deposited data

How the results depend on the processing

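The 5 results were computed under 59 alternatives, of which 7 moved a value with no test by more than the spread or a count by over 1.5 times. Beside these, the comparison with all genes changed when CpG-rich genes alone were taken. The share with a peak in both E2F1 lists was above that of all genes in full (52.9% against 34.4%). Among CpG-rich genes it was near that of all such genes (60% against 61.8%). With peaks at or above the median score of their E2F1 list, 5 genes had a peak in both E2F1 lists. The median fold was then 17.9 and the median place in the list 77.6%. The EV lists were cut in this setting at a score of 312, the median of both E2F1 lists pooled, and not at their own medians. By that cut 0 genes had an EV peak, as the EV peak at Psmd9 scored 73. The difference between E2F1 and EV there fell from 31.5 to 10 genes per library, in the same direction. Lower peaks are removed in this setting by construction. A window of 2500 bp moved the median fold to 9.49. With gene starts and ends alone, or without EV replicate 2, 0 genes had an EV peak, since the peak inside Psmd9 is in that list. Without 1 replicate, the EV count ran from 0 to 1. The number of members in the E2F1 list or lists used was 32 without either replicate. The difference in the number of members per library ran from 31 to 32 across the fits without 1 library. The replicate block gave the same difference of 31.5 genes, and flipping signs within pairs gave an exact p of 0.5, the smallest for 2 pairs. With 1 value per library, whether the numbers pair the samples could not be checked. The filter on weak peaks limits every count to sites past it.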
